A study of Homo sapiens with 20 samples.

Results

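The early response genes examined here were 9 genes of 4 small families: EGR1, EGR2 and EGR3, IER2, IER3 and IER5, KLF4 and KLF6, and MYC. They were found by their symbols in the count table, in which each symbol stands on 1 row, so that they make up 9 of 20314 genes. All 9 had enough reads to be tested, as had 14992 genes in all. They were followed through the 4 groups of U2-OS cells, a human osteosarcoma line. The groups were untreated cells, cells taken 90 min after irradiation (IR) with 20 Gy, cells taken 7 days after the same dose, and cells that were not irradiated but carried an shRNA to NFKBIA, the gene of the NF-κB inhibitor IκBα. Each group had 5 libraries, which the methods describe as quintuplicates and the paper as biological replicates, and none of the libraries was labelled as a scrambled shRNA control. The knockdown line carried a lentiviral shRNA induced with doxycycline, as the study describes it.

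Immediate early genes are transcribed within minutes of a stimulus without new protein synthesis, and most of their mRNAs are short-lived. The EGR proteins are zinc finger transcription factors that bind GC-rich sites and are switched on through serum response factor (SRF) and the ERK pathway. IER2 is a nuclear regulator of transcription, IER3 a stress-induced protein with a role in survival and a known target of NF-κB and p53, and IER5 a partner of heat shock factor 1. KLF4 and KLF6 belong to the Krüppel-like zinc finger factors, which act in growth arrest and differentiation. MYC pairs with MAX at E-box sequences and drives ribosome production and growth.

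The libraries held between 22535659 and 40390961 counted reads. Untreated replicate 5 was the shallowest, against at least 26693224 in any other library. It also stood furthest from its group, with a median absolute log2 difference of 0.33 from the other untreated libraries. That difference was 0.24 for untreated replicate 4 and at most 0.14 in every other library. Replicate 5 gave the highest or lowest untreated value for 7 of the 9 genes and for 73% of all genes tested. It was run on lane 3 beside 3 libraries at 90 min, while the other 4 untreated libraries filled lane 2. Lane and group can therefore hardly be told apart in comparisons with untreated cells, and results that rest on replicate 5 are given with and without it. A fit with lane as a factor ties the lanes of untreated and irradiated cells through replicate 5 alone, and reaches the knockdown through the 1 knockdown library on lane 5. Values within lane 3 set 3 libraries at 90 min against replicate 5 alone, a single library assumed to vary like the others, and are given without p values. NFKBIA, the targeted gene, stood at 12.1 ± 0.667 CPM (SD, n = 5) in the knockdown and at 31.3 ± 7.25 CPM in untreated cells, a log2 fold change of -1.36 (SE 0.11, adjusted p = 4.87e-09, edgeR). CPM are counts for every 1000000 reads of a library, its size scaled by edgeR's TMM method. NFKBIA was at 82.1 ± 5.27 CPM at 90 min and 30.8 ± 1.59 CPM at 7 days. The line expressed the mesenchymal markers SPARC, COL1A1 and VIM at medians of 2084, 1588 and 2205 CPM. COL1A2, from the same list, had a median of only 0.358 CPM. Of the osteoblast markers RUNX2, ALPL, SPP1 and BGLAP had medians of 101, 21.2, 11.7 and 0.932 CPM. SP7 and IBSP had at most 3 counts in any library. The sum of 4 haematopoietic markers reached 22.5 to 27.3 CPM at 7 days and at most 8.47 CPM elsewhere, with CD68, a lysosomal gene, reaching 25.6 CPM. The sum of 4 epithelial markers lay between 8.77 and 12.6 CPM in untreated cells and at 90 min, and between 3.52 and 4.22 CPM at 7 days and in the knockdown. Their part in the results was not tested.

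Divided by the gene length given with the counts, the 9 genes spanned a wide range of abundance. IER3 was on average the most abundant in untreated cells with 69.5 ± 11 CPM per kilobase (SD, n = 5). Then came EGR1 with 48.8 ± 29, IER5 with 37.5 ± 9.1, IER2 with 33.6 ± 6.9, MYC with 27.9 ± 5.8 and KLF6 with 14.9 ± 1.8. EGR2 stood at 1.76 ± 0.67 CPM per kilobase. EGR3 and KLF4 were near the limit of detection at 0.133 ± 0.033 and 0.108 ± 0.007, with 12 to 41 and 4 to 21 reads per library. The order of EGR1, IER5, IER2 and MYC lies within their spread in untreated cells. In untreated replicate 5 EGR1 stood above IER3, at 101 against 76.4 CPM per kilobase.

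EGR1 and EGR2 are shown with the sequence upstream of 1 transcription start each. These stretches carry the CArG box, the site bound by SRF that is typical of genes in this class. The sequences are from RefSeq (GRCh38.p14), read 5′ to 3′ on the gene's strand, and capitals mark CArG boxes and the cyclic AMP response element core ACGTCA. The EGR1 stretch, chr5:138465329-138465478 on the plus strand, covers the 150 bases before the start and overlaps no annotated gene.
EGR1: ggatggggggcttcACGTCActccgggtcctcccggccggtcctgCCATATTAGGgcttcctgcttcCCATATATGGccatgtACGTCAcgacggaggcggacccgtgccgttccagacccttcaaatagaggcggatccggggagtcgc
The EGR2 stretch, chr10:62816367-62816516 on the minus strand, covers the 150 bases before the most downstream of 3 starts and lies within the EGR2 gene but outside annotated exons.
EGR2: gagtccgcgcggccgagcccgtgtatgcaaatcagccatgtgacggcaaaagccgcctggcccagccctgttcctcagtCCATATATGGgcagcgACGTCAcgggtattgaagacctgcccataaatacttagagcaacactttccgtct
The stretch of EGR1 held 2 CArG boxes and that of EGR2 held 1. The windows of the other EGR2 starts and of IER2, IER5, KLF4 and KLF6 held 0. Of the 35116 promoter windows in the table, from 250 bases before to 50 after a start, 1.29% held a CArG box on either strand and 7.98% held ACGTCA. A further sequence is shown for IER5 because it holds GAANNTTC, a pair of inverted heat shock units, at bases -226 to -219 from the start. It is chr1:181088450-181088549 on the plus strand, outside annotated genes, with that site in capitals.
IER5: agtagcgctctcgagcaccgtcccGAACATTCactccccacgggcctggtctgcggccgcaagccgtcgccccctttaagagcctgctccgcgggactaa
GAANNTTC was found in 6.77% of windows. Windows were also on hand for IER2, KLF4 and KLF6, while EGR3, IER3 and MYC were not searched. The E-box CACGTG matched in KLF4, KLF6 and an upstream start of EGR2 (7.26% of windows), the EGR site GCGGGGGCG in KLF6 (5.07%), and an NF-κB site in the same upstream start of EGR2 (11.3%). TATAAA, TGACGTCA and a decamer of the p53 response element matched in none of the 8 windows, against 11.5%, 1.85% and 6.63% of all windows. These matches describe letters and do not show that a factor was bound.

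EGR1, the best known of the family, was higher at 90 min than in 4 of the 5 untreated libraries but passed no test against the whole group in the fit without lane. It measured 116, 128, 110.0, 95.7 and 316 CPM in untreated replicates 1 to 5, and 143, 162, 210.4, 174 and 173 CPM at 90 min. At 7 days it measured 139, 139.8, 131, 133 and 133 CPM, and 122, 125, 112, 132 and 135 CPM in the knockdown. All 5 libraries at 90 min were above 4 of the untreated libraries, and untreated replicate 5 was above every other library of the study. The log2 fold change was 0.17 at 90 min (SE 0.22, edgeR adjusted p = 0.627), with a 95% interval from -0.26 to 0.61. Without untreated replicate 5 it was 0.61 (edgeR adjusted p = 1.65e-05), which passed. With lane as a factor the sign turned and EGR1 was called lower, at -0.88 (edgeR adjusted p = 1.36e-04), and within lane 3 the value was -0.89. In bulk RNA a change in the share of expressing cells and a change per cell cannot be told apart, here or for the genes below. At 7 days EGR1 had a log2 fold change of -0.18 against all untreated libraries and 0.25 without replicate 5 (edgeR adjusted p = 0.0149, under the fold threshold), and in the knockdown the values were -0.29 and 0.14. Lane as a factor gave calls of lower EGR1 in both, at -1.20 and -1.31 (edgeR adjusted p = 1.10e-04 and 0.00118). Among the groups without untreated cells, EGR1 at 7 days and in the knockdown lay below 90 min with no overlap, at log2 fold changes of -0.35 and -0.46. Neither passed the test across genes (edgeR adjusted p = 0.176 and 0.101), whose spread includes untreated replicate 5. Within lane 4, which holds no untreated library, the first was -0.33 (edgeR adjusted p = 7.80e-06), under the fold threshold.

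EGR2, which acts in myelination and in lymphocyte restraint, rose at 90 min and was far lower at 7 days and in the knockdown than at 90 min. It measured 5.52, 6.97, 4.85, 4.51 and 10.6 CPM in untreated cells and 10.1, 11.8, 15.2, 10.7 and 11.6 CPM at 90 min. The values were 3.04, 5.16, 4.38, 3.83 and 4.23 CPM at 7 days and 4.27, 4.15, 3.74, 4.69 and 4.11 CPM in the knockdown. Untreated replicate 5 again lay among the irradiated libraries, and the other 4 untreated libraries lay below all those at 90 min. The rise at 90 min was 0.90 on the log2 scale (SE 0.18, edgeR adjusted p = 0.000922) and 1.11 without replicate 5. With lane as a factor it was 0.23 (edgeR adjusted p = 0.485), which did not pass, and within lane 3 it was 0.22. Against all untreated libraries EGR2 fell by 0.63 at 7 days (edgeR adjusted p = 0.00641) and by 0.60 in the knockdown (adjusted p = 0.0143). Without replicate 5 these differences were -0.43 and -0.41, under the fold threshold, and neither call held without that library. Both were larger and still called with lane as a factor, at -1.23 (edgeR adjusted p = 0.00489) and -1.18 (adjusted p = 0.0449). The differences from 90 min passed under each of the 22 and 21 alternatives run. EGR2 was lower at 7 days than at 90 min by a log2 fold change of -1.53 (SE 0.18, edgeR adjusted p = 2.89e-07) and lower in the knockdown than at 90 min by -1.50 (SE 0.18, adjusted p = 1.08e-06). On lane 4, shared by 2 libraries from each time after IR, the first of these was -1.47. Between 7 days and the knockdown the log2 difference was -0.02, with a 95% interval from -0.40 to 0.36.

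EGR3 also rose at 90 min, at a far lower level than EGR2. It measured 0.624, 0.636, 0.450, 0.626 and 0.904 CPM in untreated cells and 1.02, 0.865, 1.15, 0.967 and 1.08 CPM at 90 min, so that only replicate 5 of the untreated cells reached the irradiated range. At 7 days it measured 0.556, 0.394, 0.634, 0.517 and 0.537 CPM, and 0.412, 0.637, 0.538, 0.733 and 0.815 CPM in the knockdown. EGR3 rose by 0.69 at 90 min (SE 0.17, edgeR adjusted p = 0.00724) and by 0.80 without replicate 5. It did not pass with lane as a factor (0.16, edgeR adjusted p = 0.729), and within lane 3 the difference was also 0.16. It was lower at 7 days than at 90 min (log2 fold change -0.93, SE 0.18, edgeR adjusted p = 1.24e-04) and lower in the knockdown than at 90 min (-0.71, SE 0.18, adjusted p = 0.00247), again with no overlap. The second of these differences was -1.54 with lane as a factor. Reads of EGR3 could include those of AC055854.1, a transcript on the other strand that shares 3153 bases with the gene, since it is not known whether counting used strand.

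IER2 passed both thresholds in no comparison of the fit without lane. It measured 107, 115, 103, 123 and 68.0 CPM in untreated cells, the lowest value being replicate 5, and 130.4, 109, 129, 116 and 119.6 CPM at 90 min. At 7 days it measured 89.0, 90.3, 89.6, 95.2 and 90.8 CPM and in the knockdown 102, 104, 105, 102 and 105 CPM. The libraries at 7 days were below those of the other groups apart from untreated replicate 5. The largest difference was between 7 days and 90 min, with a log2 fold change of -0.41 (SE 0.10, edgeR adjusted p = 0.00135), under the fold threshold of 0.5. Against untreated cells the log2 difference at 90 min was 0.22 with all untreated libraries and 0.099 without replicate 5. It passed at 0.85 with lane as a factor (edgeR adjusted p = 3.14e-06), and within lane 3 it was 0.84. In the knockdown the difference from untreated cells was 0.0039, turned to -0.13 without replicate 5 and passed at 0.62 with lane as a factor (edgeR adjusted p = 0.00734). IER2 shares 1123 bases with AC011446.2, an antisense transcript.

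IER3 gave the largest response of the 9 genes at 90 min in the fit without lane. It measured 95.4, 72.3, 87.5, 113 and 104 CPM in untreated cells, and all libraries at 90 min were far above these, at 257, 225, 229, 242 and 263 CPM. At 7 days it measured 109, 109, 114, 111 and 107 CPM, at the top of the untreated range, and in the knockdown 71.0, 65.1, 67.6, 61.4 and 66.6 CPM, just under it. IER3 rose 2.58-fold at 90 min, a log2 fold change of 1.37 (SE 0.08, edgeR adjusted p = 1.65e-10). The exact two-sided permutation test gave p = 0.00794 (n = 5 and 5), the smallest it can give. The rise was between 1.19 and 1.43 under each of the 22 alternatives run, 1.19 within lane 3 included. At 7 days IER3 was 0.22 above untreated cells (edgeR adjusted p = 0.0234), under the fold threshold, and below the 90 min level by a log2 fold change of -1.15 (SE 0.08, adjusted p = 1.57e-10). The knockdown lay below untreated cells with no overlap, at a log2 fold change of -0.51 (SE 0.08, edgeR adjusted p = 5.69e-05), barely past the threshold. Without replicate 5 it was -0.49 and no longer passed, and 9 of 21 alternatives in all lost this call. The knockdown was also below 7 days, which exceeded it by 0.73 (SE 0.08, edgeR adjusted p = 1.89e-07), and below 90 min by a log2 fold change of -1.87. The levels thus ran from 90 min through 7 days and untreated cells to the knockdown, with 7 days and untreated cells differing by less than the threshold. IER3 and its antisense transcript IER3-AS1 share 394 bases.

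IER5 was higher in every library at 90 min than in any other library, by less than the fold threshold on average. It measured 92.7, 93.0, 91.9, 109.7 and 52.0 CPM in untreated cells and 149, 114, 113, 116 and 121 CPM at 90 min. The values at 7 days were 87.7, 87.8, 87.4, 86.7 and 86.6 CPM, the narrowest spread of any of these genes and groups relative to its mean (coefficient of variation 0.642%), and those in the knockdown were 107, 104, 109, 106 and 109 CPM. The libraries at 90 min did not overlap those of any other group. Against untreated cells the log2 fold change was 0.48 (SE 0.12, edgeR adjusted p = 0.00816) and without replicate 5, the lowest library, 0.33. It was called at 1.27 with lane as a factor (edgeR adjusted p = 6.32e-07), and within lane 3 the value was 1.26. Leaving out 1 library at a time gave 0.33 to 0.56, on both sides of the threshold. In the knockdown the difference from untreated cells was 0.29 (edgeR adjusted p = 0.0678), 0.13 without replicate 5 and 1.14 with lane as a factor (adjusted p = 4.23e-04), the last of which passed. IER5 at 7 days was below 90 min by a log2 fold change of -0.49 (edgeR adjusted p = 0.00157) and below the knockdown by -0.30 (adjusted p = 0.0429), both under the fold threshold. The first of these lay close to it and gained the call under 9 of 22 alternatives, reaching -0.54.

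**Figure D1:**
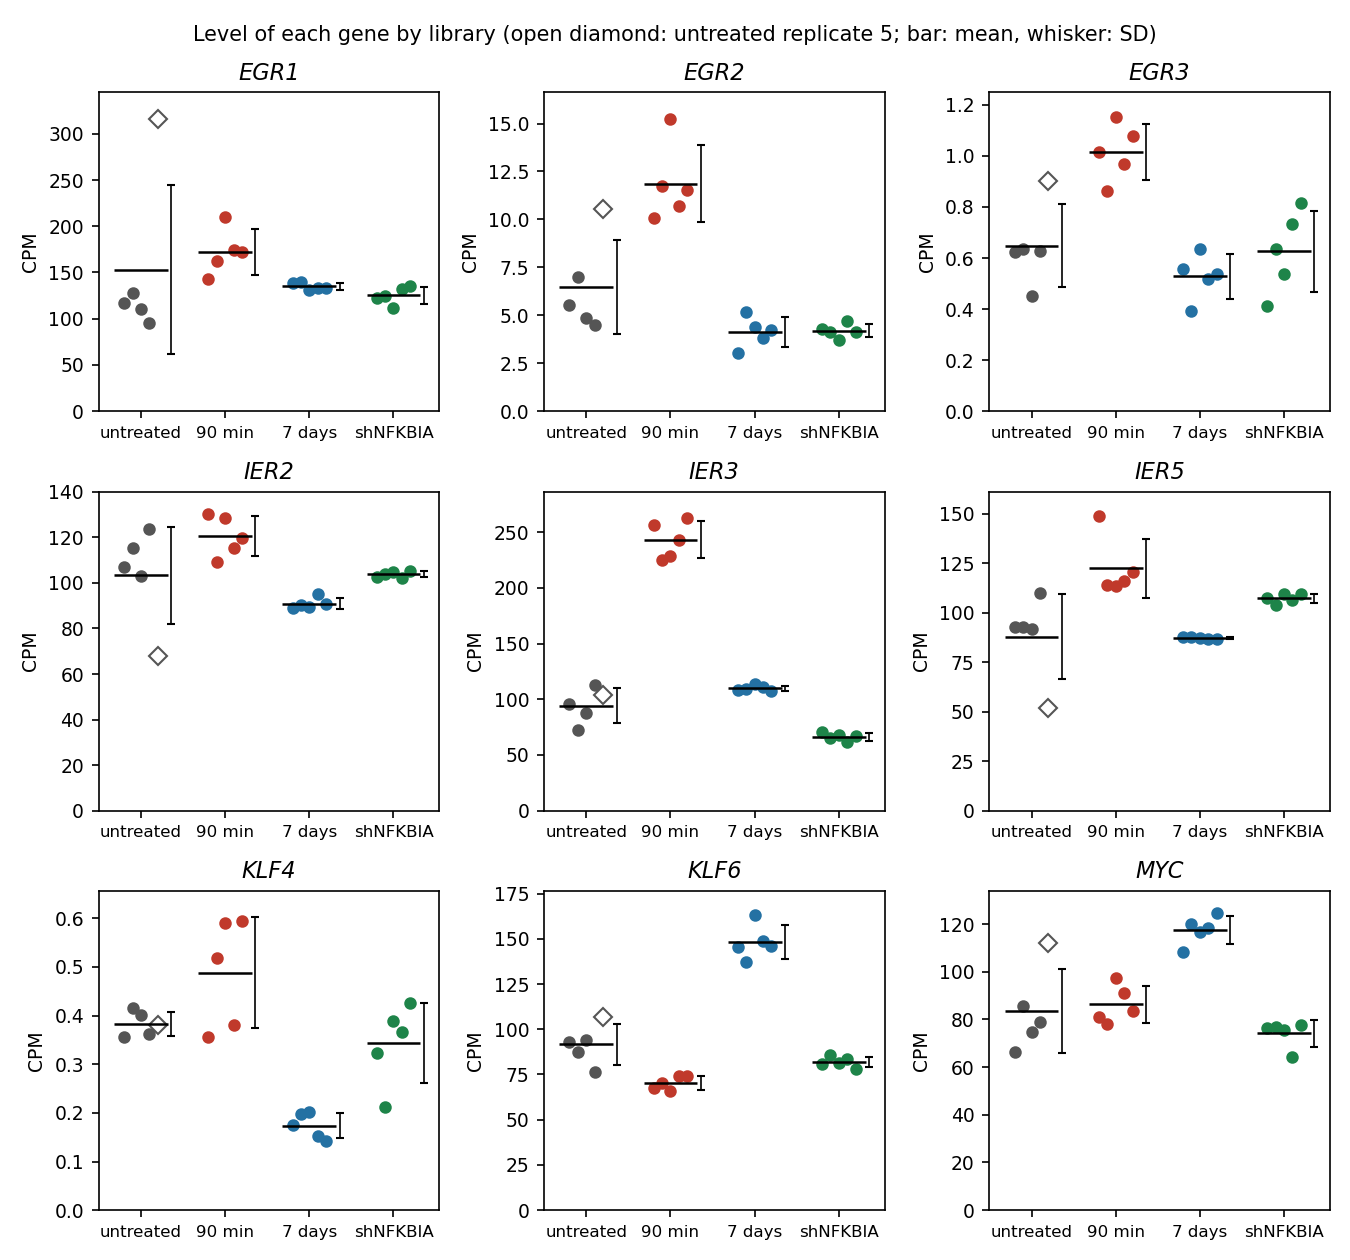
Level of the 9 early genes in each of the 20 libraries, in CPM on linear axes from 0, with 1 panel per gene and the groups untreated, 90 min and 7 days after 20 Gy, and NFKBIA knockdown (shNFKBIA). Points are libraries, black bars the mean and whiskers the SD of 5 libraries. Untreated replicate 5 (open diamond) is highest for EGR1 at 316 CPM and lowest for IER2 and IER5, the 5 IER3 libraries at 90 min lie between 225 and 263 CPM, and KLF6 and MYC are highest at 7 days.

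KLF4, a factor of growth arrest and pluripotency, was scarce and fell at 7 days. It measured 0.356, 0.415, 0.400, 0.362 and 0.381 CPM in untreated cells and 0.356, 0.519, 0.591, 0.381 and 0.595 CPM at 90 min. At 7 days it measured 0.176, 0.197, 0.202, 0.152 and 0.143 CPM, from 4 to 7 reads per library, and in the knockdown 0.324, 0.212, 0.389, 0.367 and 0.425 CPM. The 7 days libraries were below all others. KLF4 fell by 1.12 at 7 days against untreated cells (SE 0.23, edgeR adjusted p = 7.90e-04), and by 1.14 without untreated replicate 5. Against 90 min the log2 fold change was -1.46 (SE 0.22, edgeR adjusted p = 7.28e-06) and against the knockdown -0.95 (SE 0.24, adjusted p = 0.00781). With lane as a factor the differences from untreated cells and from the knockdown were -1.03 and -0.94, and neither passed (edgeR adjusted p = 0.229 and 0.177). At 90 min the difference of 0.34 from untreated cells did not pass (edgeR adjusted p = 0.328). With so few reads the size of the fall is imprecise. Its 95% interval ran from -1.58 to -0.66, which is narrower than the counting error of these reads alone allows. The other SEs of KLF4 given here are too small for the same reason.

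KLF6, a tumour suppressor of the same family, rose at 7 days. It measured 93.0, 87.6, 94.3, 76.2 and 107 CPM in untreated cells and 67.4, 70.1, 66.1, 74.4 and 74.1 CPM at 90 min, where every library was below every untreated one. At 7 days it reached 145, 137, 163, 149 and 146 CPM, above all other libraries, while the knockdown had 80.7, 85.5, 81.3, 83.7 and 78.0 CPM. The difference at 90 min was -0.38 on the log2 scale (SE 0.07, edgeR adjusted p = 4.26e-04), under the fold threshold. It was called at -0.65 with lane as a factor (edgeR adjusted p = 2.24e-05) and measured -0.66 within lane 3. In the knockdown the difference of -0.16 did not pass, and -0.65 with lane as a factor did (edgeR adjusted p = 0.00534). The rise at 7 days was 1.62-fold, a log2 fold change of 0.70 (SE 0.07, edgeR adjusted p = 1.58e-08), and 0.73 without replicate 5. With lane as a factor the difference was 0.27 (edgeR adjusted p = 0.0827) and did not pass. Set against the other groups KLF6 at 7 days was higher than at 90 min by 1.07 (SE 0.07, edgeR adjusted p = 2.21e-11) and higher than in the knockdown by 0.86 (SE 0.07, adjusted p = 8.31e-10). On lane 4, with 2 libraries from each time after IR, the first of these was 0.91. On lane 5 the second was 0.91, with 3 libraries at 7 days against a single knockdown library.

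MYC was highest at 7 days and passed the test there against the knockdown. It measured 66.1, 85.8, 74.8, 78.9 and 112 CPM in untreated cells and 81.2, 78.2, 97.3, 91.2 and 83.6 CPM at 90 min. The values at 7 days were 108, 120.1, 117, 118 and 124 CPM and those in the knockdown 76.4, 77.0, 75.6, 64.3 and 77.5 CPM. Untreated replicate 5 reached the 7 days range and the remaining untreated libraries did not. At 7 days the log2 fold change against untreated cells was 0.4954 (SE 0.10, edgeR adjusted p = 2.17e-04), just under the fold threshold, and 0.60 without replicate 5, which passed. In all, 7 of 21 alternatives gained this call, 0.51 with upper-quartile factors and 0.55 with library size alone included. With lane as a factor the difference was -0.0041 (edgeR adjusted p = 0.987). MYC at 7 days was higher than in the knockdown by 0.66 (SE 0.10, edgeR adjusted p = 9.14e-06), with no overlap. Within lane 5, where 1 knockdown library faced 3 at 7 days, the difference was 0.64. The knockdown differed from untreated cells by -0.17 and did not pass, while with lane as a factor it was called at -0.65 (edgeR adjusted p = 0.0318). MYC at 7 days was also above 90 min by 0.45 (edgeR adjusted p = 6.22e-04), under the threshold. At 90 min the log2 fold change of MYC against untreated cells was 0.05, with a 95% interval from -0.15 to 0.25.

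Counted together, 3 of the 9 genes were called higher at 90 min against untreated cells, where 2.08% of all genes tested were called higher and 1.57% lower. Of the 6 genes not called, 3 had an unadjusted p under 0.05. A gene was called where its log2 fold change exceeded 0.5 in either direction and its adjusted p was under 0.05. The genes called at 90 min were EGR2, EGR3 and IER3, and without untreated replicate 5 EGR1 joined them. In 3 of the 9 genes, IER3, IER5 and KLF6, the libraries of both groups did not overlap, as in 12.3% of all genes. At 7 days against untreated cells 1 gene was called higher (KLF6) and 2 lower (EGR2 and KLF4), beside 16.7% and 14.4% of all genes, so that their shares are near those of the whole table. KLF4 and KLF6 were the 2 genes without overlap there, against 44.8% of all genes. Without replicate 5 the calls were KLF6 and MYC higher and KLF4 lower. In the knockdown 2 genes were called lower (EGR2 and IER3), while 5.18% of all genes were called higher and 7.53% lower. IER3 was the 1 gene without overlap, against 24.1% of all genes. Of the 7 genes not called there, 2 had an unadjusted p under 0.05. Without replicate 5 edgeR called 0 of the 9. These comparisons share the untreated libraries.

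**Figure D2:**
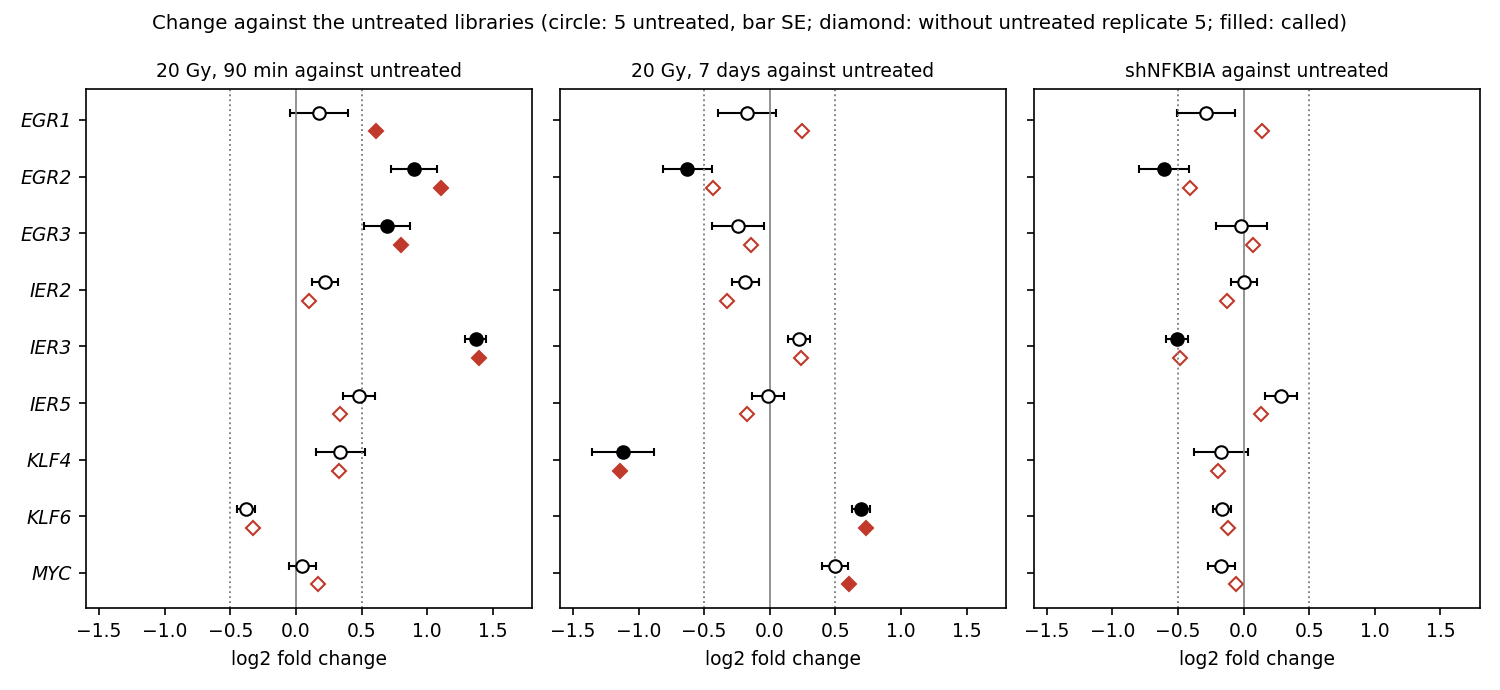
Log2 fold change of the 9 early genes (rows) against untreated cells at 90 min and 7 days after 20 Gy and in the NFKBIA knockdown. Black circles use all 5 untreated libraries with bars of 1 SE, red diamonds leave out untreated replicate 5, filled symbols were called (beyond 0.5 in either direction, adjusted p under 0.05) and dotted lines mark 0.5 in each direction. Leaving out that library moved EGR1 at 90 min from 0.17 to 0.61 and IER3 from 1.37 to 1.40.

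Comparisons that leave out untreated cells called 5, 4 and 3 of the 9 genes. Between 7 days and 90 min 1 gene was higher at 7 days (KLF6) and 4 were lower (EGR2, EGR3, IER3 and KLF4), beside 16.8% and 12.6% of all genes. In all 9 genes the libraries of the time points did not overlap, as in 61.8% of all genes tested. Between 7 days and the knockdown 3 genes were higher at 7 days (IER3, KLF6 and MYC) and 1 was lower (KLF4), beside 15.8% and 9.89% of all genes. Here 6 of the 9 genes did not overlap, as 60.7% of all genes did not. Between the knockdown and 90 min 3 genes were lower in the knockdown (EGR2, EGR3 and IER3), while 6.54% of all genes were called higher and 7.6% lower. In 8 of the 9 these groups did not overlap, against 43.6% of all genes. Of the 6 genes not called, 5 had an unadjusted p under 0.05 in edgeR.

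The surrounding genes were described through lists written from general knowledge. Against untreated cells, 2.08% of all genes tested were called higher and 1.57% lower at 90 min. These shares were 16.7% and 14.4% at 7 days, and 5.18% and 7.53% in the knockdown. Of 34 other early genes tested, 15 were called higher at 90 min, with a median log2 fold change of 0.44 against -0.03 for all genes. The stress factor ATF3 rose by 2.60 on the log2 scale, from 17.6 to 107 CPM, the antiproliferative gene BTG2 by 1.89 and ARC, a gene of synaptic plasticity, by 1.65. At 7 days 11 of the 34 were higher, led by the kinase PLK3 (1.69), ARC (1.57) and the small GTPase GEM (1.39), and 7 were lower, led by ID2 (-1.17), an inhibitor of differentiation, PIM1 (-0.96), a survival kinase, and the nuclear receptor NR4A1 (-0.86). In the knockdown 3 were called higher (IER5L, SGK1 and ARC, by 0.60, 0.52 and 0.52) and 10 were lower, with the largest falls in NR4A3 (-0.86), PIM1 (-0.85) and ZFP36L1 (-0.75). Without untreated replicate 5 these knockdown counts were 2 and 5, which do not show which of the named genes kept their call. Untreated levels spread widely for ZFP36L1 (713 ± 544 CPM, SD, n = 5) and NR4A3 (3.18 ± 2.002 CPM). The spread was narrow for PIM1 (62 ± 2.27 CPM). The falls of ZFP36L1 and NR4A3 are therefore uncertain. In the fit with lane the other early genes had 15 higher and 4 lower at 90 min, 14 and 10 at 7 days, and 5 and 12 in the knockdown. Of all 14992 genes tested that fit called 1781 higher and 2039 lower at 90 min. It called 3268 and 2920 at 7 days, and 1994 and 2094 in the knockdown. Among 7 AP-1 genes 4 were called higher at 90 min, FOSB by 1.97, JUNB by 1.14, and FOS and JUN by 0.61 each, while FOSL1 at 0.65 did not pass (edgeR adjusted p = 0.0668). At 7 days FOSB was higher (2.09) and JUND lower (-0.63). In the knockdown edgeR and DESeq2 called 0 of 7, while 5 had an edgeR adjusted p under 0.05 but stayed under the fold threshold. Without untreated replicate 5, 6 AP-1 genes were called higher at 90 min, and 2 higher and 1 lower at 7 days. The fit with lane as a factor had 3 AP-1 genes higher and 1 lower at 90 min, 1 higher and 4 lower at 7 days, and 3 lower in the knockdown.

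Partners and reported targets of EGR proteins gave mixed counts. Of 5 partners EGR4, another family member, rose by 1.90 at 90 min and 1.82 at 7 days and fell in the knockdown (-1.22), on levels of 0.226 CPM in untreated cells, 0.865 and 0.812 CPM after IR and 0.0982 CPM in the knockdown, where it had 2 to 4 reads per library. NAB1, a corepressor of EGR proteins, rose by 0.58 at 90 min. Partners called under the fit with lane were 3 higher at 90 min, 1 higher and 1 lower at 7 days, and 1 higher with 0 lower in the knockdown. Of 13 reported EGR targets 3 were higher at 90 min (MDM2 by 1.28, GADD45A by 1.26 and F3, tissue factor, by 0.68). MDM2 and GADD45A are also classical p53 targets. At 7 days 2 were higher (MDM2 by 1.78, GADD45A by 1.58) and 4 lower, PDGFB having the largest fall (-1.73). In the knockdown GADD45A was higher by 0.87 and 6 were lower, led by THBS1 (-2.20), the matrix protein thrombospondin, which went from 395 to 86.3 CPM, and PDGFB (-1.53), a growth factor. These targets were 6 higher and 1 lower at 90 min, and 3 higher and 5 lower in the knockdown, when lane was a factor. Of 19 genes of the SRF and ERK input, 1, 2 and 3 were called at 90 min, at 7 days and in the knockdown, each of them lower. MKL1, a coactivator of SRF, was lower in all of them (-0.61, -0.51 and -0.56), SRF itself at 7 days (-0.70) and in the knockdown (-0.51), and ELK4 in the knockdown (-0.51). Without replicate 5 the counts of this list were 0, 1 and 0, and with lane as a factor they were 9, 11 and 9, of which 2 were higher each time and 7, 9 and 7 lower. Calls over all 14992 genes tested also rose with lane as a factor, from 548, 4657 and 1906 to 3820, 6188 and 4088.

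In the remaining KLF family 1 of 13 genes was higher at 90 min (KLF10, a TGF-β early gene, by 0.60) and 3 at 7 days, all below 1.3 CPM (KLF15 by 1.03, KLF17 by 0.92 and KLF8 by 0.70). These are 7.69% and 23.1% of the list, beside 2.08% and 16.7% of all genes called higher. KLF8 was lower in the knockdown (-1.30). When lane was a factor 0 of this family were called higher and 3 lower at 90 min, and 0 higher and 4 lower at 7 days, while 4 were lower in the knockdown. These counts do not show whether the genes named above changed direction. In the MYC and MAX network, 15 genes, FBXW7, which marks MYC for degradation, rose by 1.01 at 90 min and 0.92 at 7 days. MXD1, a MAX partner that opposes MYC, rose by 0.63 and 0.98 at these times. The paralogue MYCN fell at 90 min (-0.98), at 7 days (-2.35) and in the knockdown (-1.83), from 2.52 CPM in untreated cells to 1.26, 0.488 and 0.699 CPM. MYCL fell at 7 days (-1.36) and in the knockdown (-0.74), and MXD3 at 7 days (-0.76). In the fit with lane this network had 2 genes higher and 4 lower at 90 min, and 1 higher and 3 lower in the knockdown. Of 28 MYC targets of ribosome and nucleotide synthesis, edgeR and DESeq2 called 0 at 90 min and 0 in the knockdown. Of these targets 4 and 9 had an edgeR adjusted p under 0.05 but stayed under the fold threshold. Without untreated replicate 5 edgeR called 1 higher at 90 min. At 7 days WDR43 (0.75), RRS1 (0.70) and POLR1B (0.52) were higher, FBL (-0.89) and RCC1 (-0.66) were lower, and the median of the list was 0.05 against 0.01 for all genes. Lane as a factor gave 1 of these targets higher and 1 lower at 90 min, 6 higher and 4 lower at 7 days, and 4 higher in the knockdown.

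**Figure D3:**
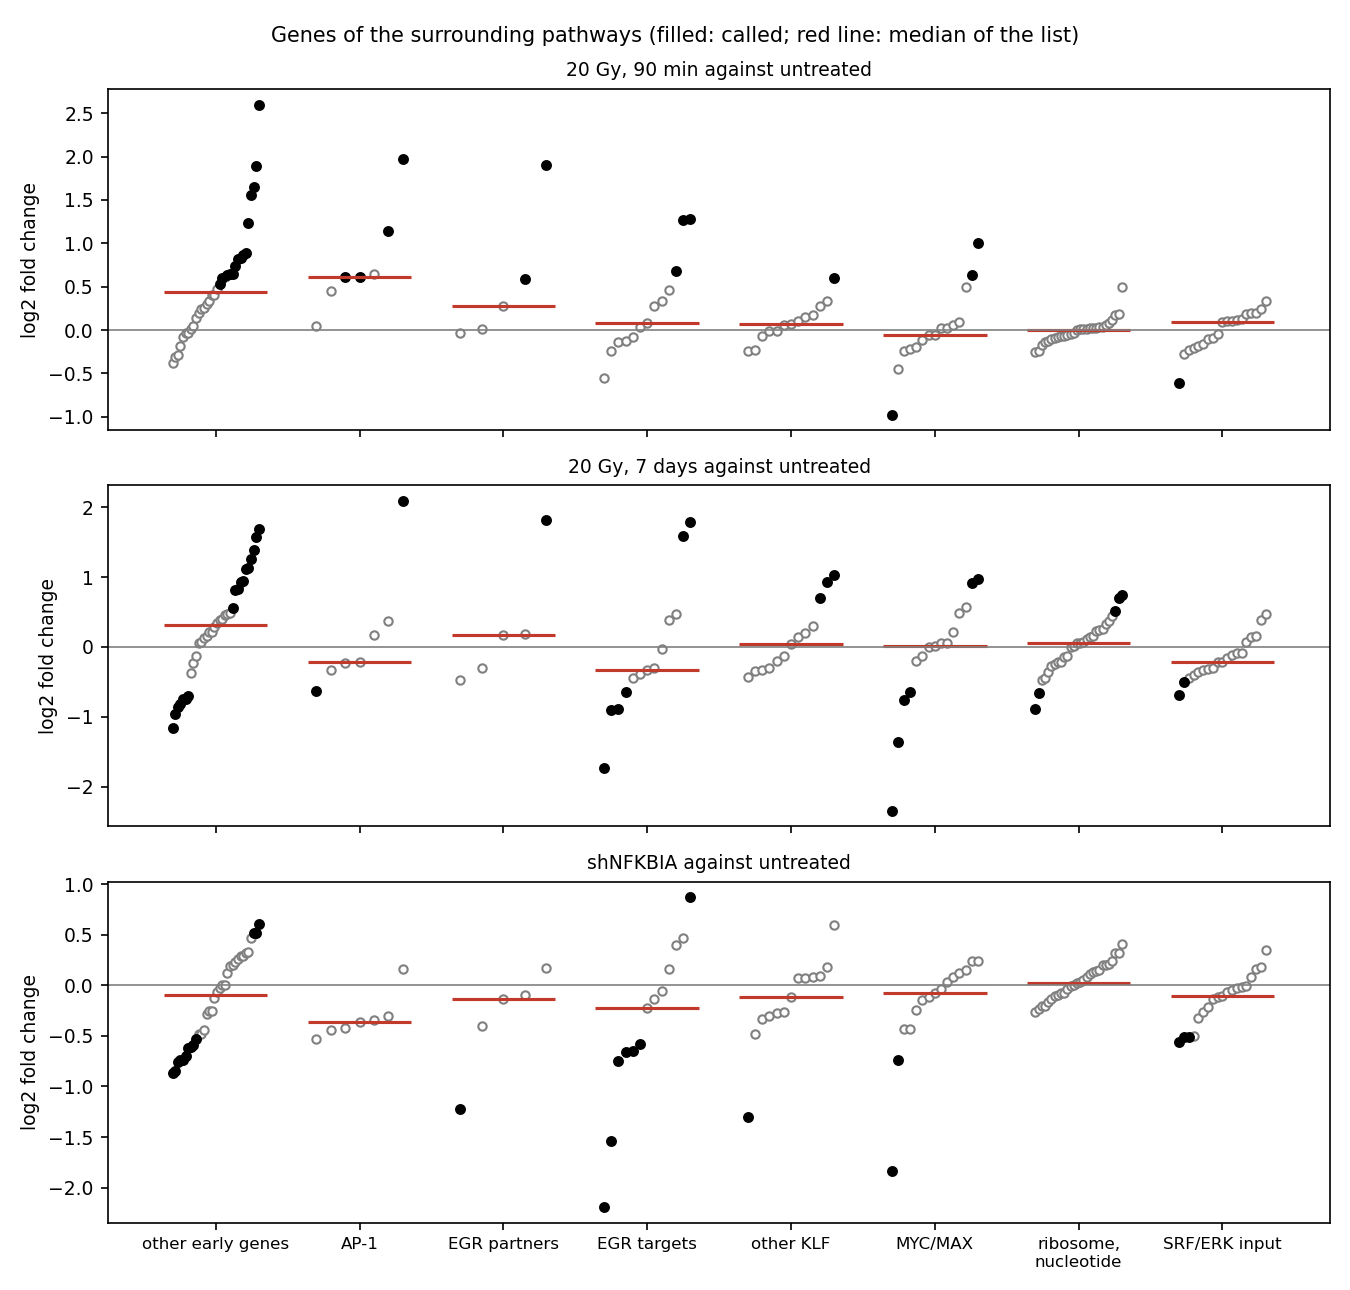
Log2 fold change against untreated cells of the genes in 8 lists around the early genes, at 90 min and 7 days after 20 Gy and in the NFKBIA knockdown (panels from top to bottom). Each point is a gene, sorted by value within its list, filled where called, and red lines mark list medians. At 90 min the other early genes have a median of 0.44 with 15 of 34 called higher, and the MYC targets of ribosome and nucleotide synthesis lie around 0.

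Over all 20 libraries, the genes whose log2 CPM ran most like each early gene were ranked by Pearson's r among all genes tested. The leading gene was SERTAD2 for EGR1 (r = 0.957), MTMR10 for EGR2 (0.946), DCK for EGR3 (0.863) and CDK3 for IER2 (0.943). It was JUN for IER3 (0.973), followed by ATF3 (0.968), and WDR45B for IER5 (0.957). KLF4 ran most like DCLRE1A (0.928), KLF6 like DTX4 (0.970) and TGFBR2, a TGF-β receptor (0.968), and MYC like TRIB1, a pseudokinase gene (0.939). These are descriptions over libraries that share groups, lanes and depth.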

How the data were processed

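RNA was extracted with Trizol, and stranded mRNA libraries were read from 1 end on a HiSeq machine. The submitters' processing notes name bcl2fastq, Trimmomatic, STAR 2.4.2a and the build hg19. The counting tool, its annotation and its strand setting are not given in the sources used here. The authors deposited whole-number counts for 20314 genes, without normalization, and each of the 20 columns belongs to 1 library. Groups were taken from the titles, and lanes from the descriptions. Cells with lentiviral shRNA had been selected with puromycin. Nothing in the labels says that replicates came from separate cultures, so that p values measure the spread between these libraries.

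The analysis used edgeR 4.0.16 (R 4.3.3). Genes were kept by filterByExpr (minimum count 10), leaving 14992, and scaled by TMM. The quasi-likelihood test was fitted to all libraries with a term per group, followed by Benjamini-Hochberg adjustment over all genes tested. Adjusted p values in the text are from this test unless another is named. Standard errors came from the F statistic, and for the few reads of EGR3 and KLF4 they can lie below the counting error. Single values were compared by an exact two-sided permutation test of log2 CPM (prior count 2, 252 splits). On simulated data the test was checked with 200 changed genes. Alternatives used other scaling, filters and thresholds, DESeq2 1.42.0, a replicate block, lane as a factor and leaving out each library, and fits within lane 3 and within lane 5 were added after seeing the data.

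The 9 genes, the lists and the tests were chosen with earlier results of these data known, and the lists are no independent evidence. The text names the 9 genes, NFKBIA, up to 3 called genes with the largest rise and 3 with the largest fall per list and comparison with untreated cells, and the genes most like each. JUN at 90 min and FOSL1 were added after their values were seen. Promoter sequences came from RefSeq (GRCh38.p14) and overlaps from GENCODE 29. Figures used matplotlib.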

Additional observations from a re-analysis of the deposited data

Results flagged for a closer look

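In 3 of the 36 combinations of an early gene and a group, 1 library stood apart from the other 4 by a gap that was a large share of the group's range (Dixon's ratio above 0.710). Chance flags about 1 in 20 groups. EGR1 in untreated replicate 5 was the highest of its group, with a ratio of 0.855, at 316 CPM against 95.7 to 128 CPM in the others. IER5 in replicate 1 at 90 min was the highest with a ratio of 0.789, at 149 CPM against 113 to 121 CPM. MYC in replicate 4 of the knockdown was the lowest with a ratio of 0.856, at 64.3 CPM against 75.6 to 77.5 CPM.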

How the results depend on the processing

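Of 1154 values of single genes under alternatives, 1054 kept their direction and their side of the thresholds, 27 lost a call, 41 gained one and 32 changed sign, and 20 of the 54 results kept both under every alternative. The number of genes called at 90 min against untreated cells (3) was 5 with lane as a factor (3 higher and 2 lower), 1 with Bonferroni adjustment and 5 with no fold threshold. At 7 days (3) it was 1 with Bonferroni adjustment and 5 with no fold threshold, and with lane as a factor it was also 3, but for IER5, EGR1 and EGR2 in place of KLF6, EGR2 and KLF4. In the knockdown (2) it was 1 with upper-quartile factors, 1 with library size alone, 1 with the replicate block, 7 with lane as a factor (2 higher and 5 lower) and 0 with Bonferroni adjustment, and 0 to 2 when each library was left out. Between 7 days and 90 min (5) it was 8 with no fold threshold. The exact two-sided permutation test gave an unadjusted p under 0.05 in 36 of the 54 results with a prior count of 2 and in 36 with 0.5. Its share over all genes was not computed. Groups without overlap give its smallest p, and they made up 12.3% to 61.8% of all genes across the comparisons.

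With lane as a factor the sign changed for EGR1 and MYC at 90 min (-0.88 and -0.39, and -0.89 and -0.40 within lane 3), for IER2, IER3, IER5 and MYC at 7 days against untreated cells (0.46, -0.0203, 0.84 and -0.0041), and for EGR3 between 7 days and the knockdown (0.45, and 0.44 within lane 5, which holds 1 knockdown library). In comparisons with untreated cells this fit takes the lane difference from untreated replicate 5. Values near 0 changed sign for IER5 at 7 days (0.0283 with library size alone, 0.0043 with the replicate block), for EGR3 in the knockdown (0.0066 with upper-quartile factors, 0.0369 with library size alone) and for IER2 in the knockdown (-0.0055 with RLE factors, -0.0052 with DESeq2, -0.0193 with no filter, -0.0131 with at least 10 counts in every library). Leaving out 1 library gave -0.023 to 0.17 for MYC at 90 min, -0.34 to 0.25 for EGR1 and -0.17 to 0.0555 for IER5 at 7 days, -0.44 to 0.14 for EGR1, -0.14 to 0.11 for EGR3 and -0.13 to 0.0552 for IER2 in the knockdown, and -0.13 to 0.0555 for EGR2 between 7 days and the knockdown.

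Replicate numbers did not pair the samples: over 30 pairs of like-numbered libraries the correlation of their deviations ran from -0.25 to 0.12, with 2 above 0.1. Of all 14992 genes tested 548, 4657 and 1906 were called at 90 min, at 7 days and in the knockdown against untreated cells. The counts were 3820, 6188 and 4088 with lane as a factor, 256, 3142 and 899 with Bonferroni adjustment and 3191, 9620 and 6078 with no fold threshold. Between 7 days and 90 min 4398 were called, and 9131 with no fold threshold. In the knockdown against untreated cells 40.8% of calls were higher with TMM and 51.2% with library size alone. The reads limit EGR3 and KLF4 most, and the cause of the changes above was not tested.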
